A study of Arabidopsis thaliana with 8 samples.

Results

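The genes described here had higher signal in shoot apices of the fil-8 yab3-2 yab5-1 triple mutant of Arabidopsis thaliana than in apices of the fil-8 yab3-2 double mutant or of wild type, while the double mutant stayed close to wild type. They were chosen from the measured values by a rule with 4 parts. Both triple mutant arrays had to lie above the highest of the other 6 arrays, the triple mutant mean had to exceed the double mutant mean by at least 1 log2 unit, the double mutant mean had to lie within 0.5 of the wild-type mean, and at least 1 wild-type array had to exceed a log2 value of 4. Of 22746 probe sets (the array's sets of short probes, each designed for a transcript), 145 met the rule, which is 1.04% of the 13921 with a wild-type array above 4. Of these 145, 76 name 1 gene, 5 name several genes and 64 are unnamed here. The rule fixes the differences between the groups, so all of them are given as a description. Calls of a model fitted to all probe sets are counted once below as background, and no member is singled out by them.

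The study compared 3 groups of Ler background plants: the triple mutant fil-8 yab3-2 yab5-1 on 2 arrays, the double mutant fil-8 yab3-2 on 2 arrays and wild type on 4 arrays. Apices were taken 14 days after sowing, under short days, and 1 biotin-labelled total RNA sample went on each array. Nothing in the labels tells whether the arrays of 1 genotype stand for independently grown plants, and the spread between them may be technical. An apex holds many cell types, and in such bulk RNA more cells of a type and more RNA per cell cannot be told apart.

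FIL, YAB3 and YAB5 are YABBY transcription factors, which in Arabidopsis are made on the abaxial (lower) side of young leaves. They are known for promoting growth of the leaf blade and for restricting meristem programs in leaves, acting together with co-repressors, so loss of several members changes leaves more than loss of any 1 alone. A gene that YAB5 keeps down when FIL and YAB3 are absent would be low in the double mutant and high in the triple mutant, and this is the pattern the rule picks out. Whether YAB5 acts on any of these genes, directly or indirectly, was not tested. YAB5 signal itself was 5.28 and 5.02 on the triple mutant arrays, against 6.03 and 5.60 on the double mutant arrays and 7.52, 7.17, 5.51 and 5.32 on wild-type arrays 1 to 4. Its triple mutant arrays were the lowest of all 8, but wild-type array 4 lay only slightly above them. YAB3 read 4.40 and 5.50 in the triple mutant, 3.35 and 4.99 in the double mutant, and 8.35 to 9.48 in wild type, so both mutants were low by this probe set. Where these probes lie relative to the mutations was not examined here.

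Median log2 signal lay between 5.76 and 5.89 on all arrays. Wild-type arrays 1 and 2 stood apart from arrays 3 and 4: the correlation over the 13888 probe sets with 2 or more arrays above 4 (Pearson's r) was 0.970 within each pair and 0.861 to 0.888 between them, and 42 of 45 spike-in control probe sets were higher on arrays 1 and 2 than on any other array. In 6 control transcripts the 3′ signal exceeded the 5′ signal by 1.41 on double mutant array 1, and by 1.29 and 1.44 on the first wild-type pair, but by only 0.466 to 0.732 on the other 5 arrays. The tissue label could not be checked well, because no class I KNOX or boundary gene listed has a named probe set. CLV3, a stem cell peptide gene of the shoot meristem, and UFO, a meristem F-box gene, lay at 2.19 and 2.102 on both triple mutant arrays, where UFO stayed at or under 2.11 on the other arrays too. CLV3 was 4.32 and 3.89 on the double mutant arrays and at most 2.59 in wild type, so it was highest in the double mutant, though too dim to be tested. Its part in the members' pattern was not tested. The root hair expansin genes EXPA7 and EXPA18 were at most 2.102 and 3.54 on every array.

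Across all 145 probe sets the triple mutant exceeded the double mutant by a median of 1.32 log2 units, with a range of 1.01 to 5.12, beside a median of -0.03 over the 13921 probe sets. Most of the differences were modest: 23 of the 145 reached 2 log2 units and 55 reached 1.5. Against wild type the triple mutant was higher by 0.78 to 4.79, with a median of 1.46, and the double mutant differed from wild type by -0.45 to 0.48. Both triple mutant arrays lay above the other 6 for 8.65% of the 13921 probe sets, so the lack of overlap alone is a common property. The double mutant mean was above a log2 value of 4 in 140 of 145 members, which the rule largely fixes, and above 10 in 13. Their median level was 8.45 in the triple mutant, 6.68 in the double mutant and 6.67 in wild type, against 8.03, 8.05 and 8.05 over the 13921 probe sets.

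**Figure D1:**
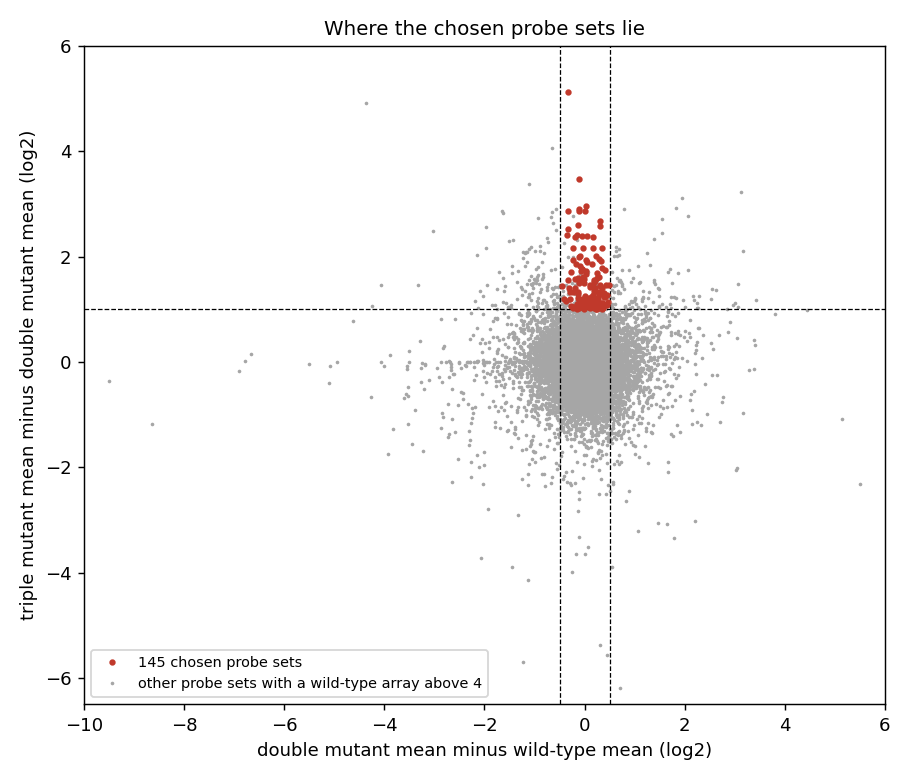
Each point is a probe set with at least 1 wild-type array above a log2 value of 4, placed by its double mutant minus wild-type mean (x axis, log2 units) and its triple minus double mutant mean (y axis, log2 units), and the 145 chosen ones are red. Dashed lines mark the limits of the rule at 1 and at 0.5 on either side of 0, and the red points thin out quickly above 2, where 23 of them lie.

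The same rule with the mutants exchanged, which picks probe sets high on both double mutant arrays only, found 12 (0.0862%), and the rule turned upside down, for probe sets lower only in the triple mutant, found 218 (1.57%). These 3 counts are descriptions of the same 8 arrays. In a linear model with moderated variance fitted to all arrays (limma, Benjamini-Hochberg adjustment over 13888 probe sets, threshold 0.05), 17 of the 145 were called higher in the triple than in the double mutant, where 0.547% of all probe sets were called higher. Against wild type 60 of the 145 were called higher, where 2.22% of all probe sets were. None of the 145 was called higher in the double mutant than in wild type, where 0.0936% of all probe sets were (0.166% in either direction). The rule used these contrasts, so nothing is read from the counts. The count of 17 was 2 without triple mutant array 1, 3 without triple mutant array 2, 6 without double mutant array 1, 6 without double mutant array 2 and 11 without wild-type array 4, while it was 30 with wild-type arrays 3 and 4 only and 45 with the wild-type pairs fitted as separate groups. The count of 60 was 7 and 8 without triple mutant arrays 1 and 2, 39 and 38 without double mutant arrays 1 and 2, and 40 without wild-type array 1. It was 105 with wild-type arrays 1 and 2 only and 119 with the pairs fitted as separate groups. The background moved too. Against the double mutant, 98 of 13664 probe sets were called higher with wild-type arrays 3 and 4 only and 136 of 13888 with separate pairs. Against wild type, 1536 of 13734 were called higher with wild-type arrays 1 and 2 only and 1078 of 13888 with separate pairs. In the fits named that leave out 1 array, fewer of all probe sets were called higher as well.

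The gap between the lowest triple mutant array and the highest other array says how cleanly a member separates. It ranged from 0.0095 to 3.04 log2 units with a median of 0.74, was at least 1 in 38 members and under 0.25 in 20. In 49 members the gap was larger than the whole range of the arrays within any of the 3 groups. The rule demands a positive gap and a mean difference between the mutants of at least 1 log2 unit. These gap counts therefore follow in part from the choice of members. They were not made over the 13921 probe sets and are given as a description only. The other 6 arrays took turns as the nearest to the triple mutant: double mutant arrays 1 and 2 were the highest of them in 24 and 21 members, and wild-type arrays 1 to 4 in 16, 33, 31 and 20. No single array outside the triple mutant therefore set the lower edge for most members. Exactly equal values on several of the 6 arrays outside the triple mutant, which the deposited table holds for some probe sets, were found in 25 members (17.2%) and in 9.08% of the 13921 probe sets. In such members the spread outside the triple mutant is smaller than independent readings would give, so a small spread there is no measure of precision.

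**Figure D2:**
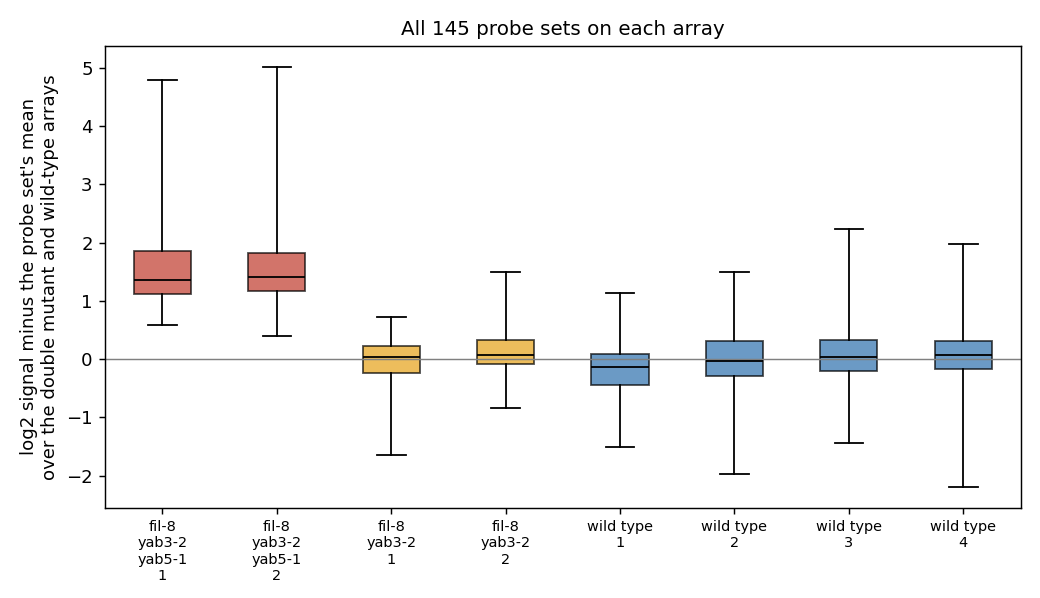
For each of the 8 arrays, the box gives the quartiles and median, and the whiskers the lowest and highest value, over the 145 probe sets of the log2 signal minus that probe set's own mean over the double mutant and wild-type arrays. The medians are 1.36 and 1.41 on the triple mutant arrays, 0.03 and 0.07 on the double mutant arrays and -0.13 to 0.07 on the wild-type arrays.

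The rule bounds the wild-type arrays from above and their mean on both sides, so the shift between the wild-type pairs is also given as a description only. Arrays 1 and 2 minus arrays 3 and 4 had a median of -0.11 over the members and -0.07 over the 13921 probe sets, and the median size of the shift, regardless of sign, was 0.49 and 0.52. Arrays 1 and 2 lay wholly above arrays 3 and 4 in 26 members and wholly below them in 54. The same counts were not made over the 13921 probe sets, so this split is not read as a trait of the members. Against wild-type arrays 3 and 4 alone the triple mutant was higher by a median of 1.39 over the members, and against arrays 1 and 2 alone by 1.58. Across the 145 members the pair difference correlated with double mutant array 1 minus array 2 at r = 0.279, against -0.05 across the 13921 probe sets. The rule bounds both groups of arrays in the members. The unnamed probe set 264101_at had the largest of both differences among them, -2.63 and -3.13, and its weight in r was not examined. This correlation is a description across probe sets that share the same arrays. The part of the 3′ to 5′ difference in it was not tested.

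The largest difference of all belonged to probe set 252415_at, which is unnamed here. It read 9.50 and 9.73 in the triple mutant, 3.79 and 5.18 in the double mutant and 3.61, 6.20, 6.95 and 2.52 in wild type. Its triple mutant values were thus close together while its wild-type arrays spanned more than 4 log2 units. The unnamed probe set 249331_at was bright everywhere, at 13.24 and 13.01 in the triple mutant against 10.80 and 10.66 in the double mutant and 10.70 to 10.87 in wild type.

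Among members that name a gene, the roles given below for genes known only by a locus identifier are background from the general annotation of the Arabidopsis genome and not from the tables used here. The genes outside the 20 largest differences were, apart from neighbours in gene order and those nearest the threshold, chosen after their values were seen. Grouping by role only orders the genes, and no such group was tested.

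Genes of the defence and pathogen recognition type include the largest difference among named members. AT3G44630, which encodes a TIR-NBS-LRR disease resistance protein, an intracellular immune receptor type, read 8.38 and 8.03 in the triple mutant, 4.64 and 4.83 in the double mutant and 4.83, 4.996, 4.68 and 4.85 in wild type. The mutants differed by 3.48 log2 units, with 1 identical value on a double mutant and a wild-type array, and the gap of 3.04 was the widest of all members. AT5G40910, of the same receptor class, read 7.41 and 7.55 in the triple mutant, 5.19 and 5.996 in the double mutant and 5.19, 4.17, 6.63 and 6.21 in wild type. Here the wild-type pairs differed, and the triple mutant was still 0.78 above the highest of the other arrays. The neighbouring genes AT3G28940 and AT3G28950 both encode proteins like AIG2, a protein known from transcripts induced by avirulent bacteria. AT3G28940 had 9.76 and 9.73 in the triple mutant, 8.12 and 7.85 in the double mutant and 7.29, 7.79, 8.52 and 8.51 in wild type. AT3G28950 was far dimmer, at 5.80 and 6.22 in the triple mutant, 4.71 and 4.44 in the double mutant and 4.46 to 4.47 on all wild-type arrays. As these are related sequences, signal on 1 probe set may in part come from the other gene, which was not tested.

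Several of the named members encode metabolic enzymes. AT3G47800, an aldose mutarotase-like gene, read 8.20 and 8.52 in the triple mutant, 5.53 and 5.27 in the double mutant and 4.92, 5.85, 5.70 and 5.02 in wild type, a 7.80-fold difference between the mutants. PPDK, pyruvate orthophosphate dikinase, which makes phosphoenolpyruvate from pyruvate, read 7.92 and 7.95 in the triple mutant, 5.76 and 6.75 in the double mutant and 6.43, 6.12, 5.22 and 6.26 in wild type. Its triple mutant arrays were nearly equal and lay 1.17 above the highest other array. AT1G64190, a 6-phosphogluconate dehydrogenase of the oxidative pentose phosphate pathway, had 9.39 and 9.53 in the triple mutant against 8.02 and 7.89 in the double mutant and 7.87 to 8.12 in wild type. The spread of AT1G64190 outside the triple mutant was small beside its difference of 1.501.

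UGT72E1, a glucosyltransferase acting on lignin precursor alcohols and aldehydes, read 6.17 and 7.53 in the triple mutant, 4.51 and 5.31 in the double mutant and 4.51, 6.04, 5.08 and 4.93 in wild type. Its separation was narrow, since triple mutant array 1 lay only 0.13 above wild-type array 2, and its difference of 1.94 between the mutants became 1.26 without triple mutant array 2. AT1G59960, an aldo-keto reductase, separated clearly, with 8.0 and 8.12 in the triple mutant against 5.72 and 5.67 in the double mutant and 5.37 to 5.62 in wild type. AT2G40230, of the acyltransferase family that includes hydroxycinnamoyl transferases, read 8.29 and 8.71 in the triple mutant, 7.21 and 7.39 in the double mutant and 6.81 to 7.24 in wild type. ALN, allantoinase, which opens the ring of allantoin in purine breakdown, had 7.28 and 7.23 in the triple mutant, 5.75 and 6.36 in the double mutant and 5.93 to 6.78 in wild type. ALN exceeded the double mutant by 1.197 and wild type by only 0.79. FDH (AT5G14780), formate dehydrogenase and not the epidermal gene of the same symbol, had 11.12 and 10.94 in the triple mutant against 9.86 and 10.04 in the double mutant and 9.67 to 10.37 in wild type. AT1G31910, a phosphomevalonate kinase of isoprenoid synthesis, differed between the mutants by 1.17, and AT5G51830, a fructokinase, by 1.06.

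Among genes for nucleic acids and ribosomes, AT1G75230, which encodes a DNA glycosylase, a class of base excision repair enzymes, read 10.35 and 10.15 in the triple mutant, 7.22 and 7.48 in the double mutant and 7.57, 7.50, 7.30 and 7.43 in wild type. It was 7.48-fold higher in the triple than in the double mutant and among the best separated, with the other 6 arrays all between 7.22 and 7.57. AT5G27990, related to the pre-rRNA processing factor TSR2 of yeast, read 9.33 and 9.62 in the triple mutant, 6.89 and 7.26 in the double mutant and 6.57 to 7.36 in wild type. AT5G08565, listed with the synonym SPT4-1 after a transcription elongation factor subunit, had 5.98 and 6.33 in the triple mutant, 4.25 and 4.23 in the double mutant and 3.61, 3.61, 4.23 and 4.23 in wild type. Its wild-type values lay at the same level within each pair. PRH75, a DEAD-box RNA helicase, was close to the threshold, with 11.25 and 11.90 in the triple mutant against 10.08 and 11.05 in the double mutant and 10.36 to 10.71 in wild type. Without double mutant array 1 its difference became 0.52. AT5G54940, which resembles the translation initiation factor eIF1, differed between the mutants by 1.05 and from wild type by 0.78.

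DME, the DNA glycosylase DEMETER that removes methylated cytosine, shows how far a result can rest on 1 probe set. The member probe set 250835_at read 6.27 and 6.57 in the triple mutant, 4.17 and 6.10 in the double mutant and 5.42, 4.78, 5.12 and 5.78 in wild type. Its difference of 1.28 became 0.32 without double mutant array 1, the lowest of all 8, and 2.25 without double mutant array 2. The brighter DME probe set 250836_at read 8.33 and 8.05 in the triple mutant, 8.22 and 8.52 in the double mutant and 8.01 to 8.52 in wild type, a difference of -0.18 between the mutants. The dim DME probe set 250834_at differed by 0.43, with overlapping arrays. Of the other members, AT1G72410 has a second named probe set, which lay below a log2 value of 4 on all arrays and differed by 0.81 in the same direction (member: 1.14), and the probe set 266806_at, which names AT1G07170 and AT2G30000, has a further one for both genes that differed by -0.13 (member: 1.09). Probe sets for DME and for AT1G07170 and AT2G30000 thus did not all show the pattern, and for the remaining named members no further named probe set was found.

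Signalling, cytoskeleton and regulator genes were also present. AT5G37740, a C2-domain protein of the family that recruits abscisic acid receptors to membranes, read 7.36 and 7.81 in the triple mutant, 4.93 and 4.89 in the double mutant and 4.03, 4.48, 5.12 and 4.79 in wild type, a 6.39-fold difference between the mutants. NET4B, an actin-binding protein of the NETWORKED family, had 7.37 and 6.74 in the triple mutant, 5.20 on both double mutant arrays and 5.20, 5.86, 5.24 and 5.17 in wild type. NET4B, AT3G28950 and AT5G44580 each had 1 identical value on 3 of the 6 arrays outside the triple mutant. AT1G62480, a vacuolar calcium-binding protein, read 11.10 and 10.54 in the triple mutant, 7.65 and 8.24 in the double mutant and 7.66, 7.24, 10.21 and 8.01 in wild type. Wild-type array 3 came within 0.33 of the triple mutant there, so AT1G62480 is raised against most but not every wild-type array by a wide margin. AT5G01720, an F-box protein gene, had 9.07 and 7.78 in the triple mutant against 6.89 and 6.90 in the double mutant and 6.33 to 6.90 in wild type. Its difference of 1.53 became 0.89 without triple mutant array 1. AT1G76580, an SBP-box gene of the SPL family of transcription factors, which govern phase change and leaf traits, exceeded the double mutant by 1.11 but lay only 0.06 above wild-type array 4. MOB1-like, related to MOB1 of the Hippo-type growth control pathway known from animals, read 10.16 and 9.94 in the triple mutant, 8.32 and 9.57 in the double mutant and 8.81 to 9.45 in wild type. Its difference of 1.102 became 0.48 when double mutant array 1 was left out, or 1.73 when array 2 was.

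**Figure D3:**
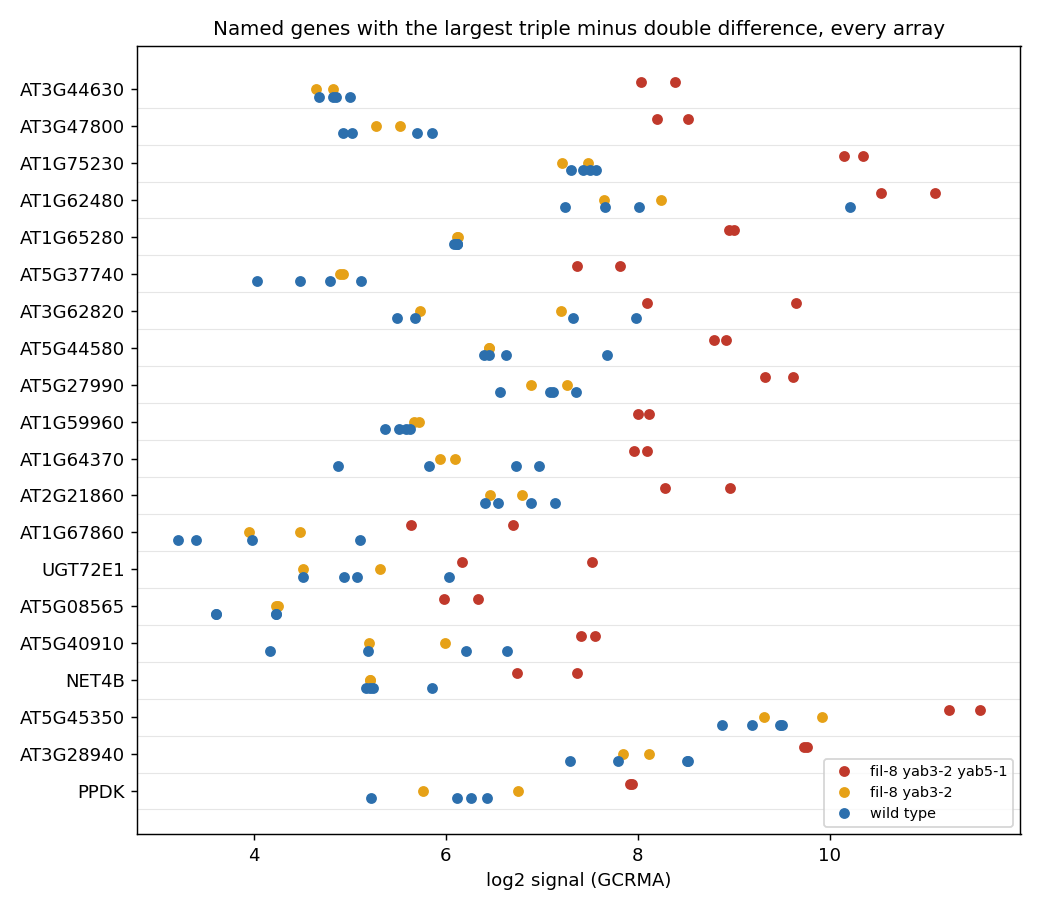
Log2 signal (x axis) of the 20 named genes with the largest difference between the mutants, ordered from the top, with 1 point per array: triple mutant in red, double mutant in orange and wild type in blue. AT3G44630, AT1G75230 and AT1G65280 show wide gaps, while AT1G62480, AT3G62820 and UGT72E1 have a wild-type array within 0.33 of the triple mutant.

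Named members also include genes for peptidases, and others related to cell walls and membranes. The papain-like cysteine peptidase genes AT4G16190 and AT3G43960 and the cathepsin B gene AT4G01610 exceeded the double mutant by 1.04, 1.14 and 1.04. AT4G16190 was among the brightest members, with 13.27 and 13.24 in the triple mutant against 12.12 and 12.32 in the double mutant and 12.35, 12.72, 10.77 and 11.60 in wild type. AT3G57470, an insulinase-type metallopeptidase, differed by 1.32 and PIP, proline iminopeptidase, by 1.46. PIP read 10.14 and 9.52 in the triple mutant, 8.47 and 8.28 in the double mutant and 7.55 to 8.60 in wild type.

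AT3G62820, an invertase and pectin methylesterase inhibitor family gene, varied strongly, with 8.10 and 9.65 in the triple mutant, 7.20 and 5.73 in the double mutant and 7.32, 7.98, 5.49 and 5.68 in wild type. Double mutant array 1 lay near wild-type arrays 1 and 2 and double mutant array 2 near wild-type arrays 3 and 4. Among these 6 arrays the 3′ to 5′ differences show the same division. The triple mutant arrays, highest for AT3G62820, had 3′ to 5′ differences of 0.73 and 0.60, among the smaller ones. The part of these differences in the signal of AT3G62820 was not tested. CP5, whose product has a lipid-binding START-type domain, was the brightest named member, at 13.35 and 13.36 in the triple mutant, 11.69 and 12.34 in the double mutant and 12.37, 12.59, 12.56 and 11.45 in wild type. AT1G22180, a Sec14-like lipid transfer protein, differed by 1.40, AT1G61890, a MATE-type efflux carrier, by 1.17, AT1G67360, a lipid droplet-associated protein, by 1.15 and AT4G32640, a SEC24-like subunit of the vesicle coat COPII, by 1.03. The last 2 had gaps of only 0.06 and 0.08. Without double mutant array 1 the differences of AT1G61890 and AT4G32640 became 0.75 and 0.23, without double mutant array 2 that of AT4G32640 became 1.83, and without triple mutant array 2 that of AT1G67360 became 0.72.

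Genes for chloroplasts and mitochondria include AT2G21860, related to violaxanthin de-epoxidase, with 8.96 and 8.28 in the triple mutant against 6.46 and 6.79 in the double mutant and 6.40 to 7.14 in wild type. AT1G62085 and AT1G62150, genes of the mTERF family of organelle gene expression factors that lie 4 places apart in gene order, exceeded the double mutant by 1.17 and 1.45. AT2G33220, a GRIM-19-like subunit of mitochondrial complex I, read 6.35 and 6.24 in the triple mutant against 5.10 on both double mutant arrays and 5.03 to 5.17 in wild type.

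The remaining genes among the 20 largest have no role given here. AT1G65280 read 8.95 and 9.01 in the triple mutant, 6.13 and 6.12 in the double mutant and 6.12, 6.12, 6.12 and 6.08 in wild type. The deposited value was identical on 4 of the 6 arrays outside the triple mutant, so neither its small spread there nor the size of its difference can be taken as exact. AT5G44580 had 8.92 and 8.80 in the triple mutant, 6.45 on both double mutant arrays and 7.68, 6.40, 6.63 and 6.45 in wild type. AT1G64370 had 7.96 and 8.10 in the triple mutant, 6.10 and 5.94 in the double mutant and 6.74, 6.97, 4.87 and 5.83 in wild type. Both were clear of the other arrays, by 1.11 and 0.99. However, AT5G44580 did not meet the rule with wild-type arrays 1 and 2 alone, and AT1G64370 did not with either pair alone. The double mutant mean of AT1G64370, 6.02, lay between the means of wild-type arrays 3 and 4 (5.35) and 1 and 2 (6.85). AT1G67860 was dim, with 6.70 and 5.64 in the triple mutant, 4.48 and 3.95 in the double mutant and 3.203 to 5.10 in wild type. AT5G45350 had 11.57 and 11.25 in the triple mutant, 9.92 and 9.32 in the double mutant and 8.88 to 9.51 in wild type.

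At the threshold of 1 log2 unit the members were continuous with the probe sets left out. The 3 members just inside were AT5G34930 (1.01), an arogenate dehydrogenase gene of tyrosine synthesis, AT1G78210 (1.01), an alpha/beta hydrolase gene, and PRH75 (1.01). The 3 probe sets just outside, which met every other part of the rule, were 252679_at, 265142_at and 251373_at, with differences of 0.999, 0.996 and 0.990. The 8 genes that the rule leaves out by name would not have met it. Their double mutant means exceeded wild type by 0.53 (GID1A) to 3.12 (AT1G33790), beyond the limit of 0.5. Those genes include the auxin-conjugating enzyme genes WES1 and GH3.17. For GID1A the arrays overlapped, at 7.14 and 7.92 in the double mutant against 6.36 to 7.53 in wild type.

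The 76 genes were unevenly placed along the chromosomes. Chromosome 1 held 27 of them (35.5%), against 26.3% of the 7411 probe sets that name 1 protein-coding gene and have a wild-type array above 4, and chromosome 5 held 21 (27.6%, against 23.7%). Chromosome 2, which carries YAB5, held 7 (9.21%, against 14.6%), and the nearest of these, AT2G23120, lies 358 protein-coding genes from YAB5. GSL-OH (AT2G25450), described below, is no member, but by locus number it lies between AT2G23120 and YAB5 (AT2G26580). When the genes of each chromosome were divided into stretches of 500 protein-coding genes, 19 of 57 stretches held no member, 21 held 1 and 10 held 3 or more. The stretch from AT2G21725 to AT2G26530, which ends just before YAB5, held 3 members among 116 such probe sets (2.59%). The fullest stretch, from AT1G60570 to AT1G65165, held 9 members among 127 such probe sets (7.09%), where 1.03% of all 7411 were members. Its members were AT1G61740, AT1G61890, AT1G62085, AT1G62150, AT1G62480, AT1G64190, AT1G64370, and the adjacent genes AT1G64710 and CP5. AT1G64710, an alcohol dehydrogenase-like gene, read 5.60 and 6.08 in the triple mutant, 4.37 and 4.39 in the double mutant and 3.29, 3.61, 4.46 and 4.46 in wild type.

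A tighter group lay on chromosome 5, in a run of 23 protein-coding genes picked out after the positions were seen. It held AT5G45350, AT5G45430, AT5G45510 and MOB1-like (AT5G45550), 4 of the 8 such probe sets in the run. AT5G45510 read 7.39 and 7.43 in the triple mutant, 5.69 and 5.90 in the double mutant and 5.30 to 5.72 in wild type. AT5G45430 read 8.99 and 9.07 in the triple mutant, 7.72 and 8.03 in the double mutant and 7.99 to 8.49 in wild type. On chromosome 3, by contrast, no member came before AT3G26070, the 2768th protein-coding gene in order, although 848 of the 7411 probe sets lie there. The median gene length was 2270.5 bases for the members and 2411 for the 7411 probe sets. These positions are a description with no test, the unnamed probe sets are missing from them, and whether the lines differ in chromosome segments other than the mutated genes was not tested.

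**Figure D4:**
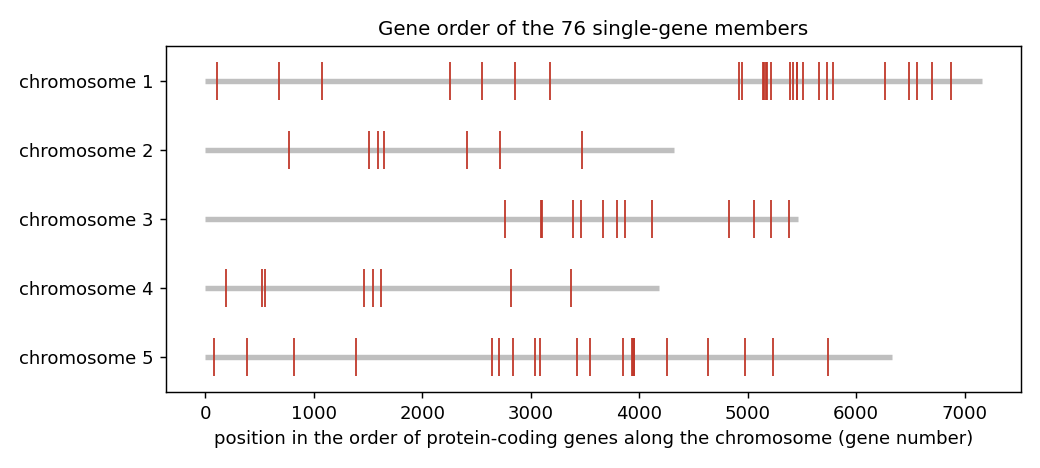
Each red tick is a member that names 1 gene, placed by its number in the order of protein-coding genes (x axis) along the 5 chromosomes (grey lines). Ticks crowd in the stretch of chromosome 1 that holds 9 members and in the run of 4 on chromosome 5, and the first tick on chromosome 3 is the 2768th gene.

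No member belongs to the 24 lists of genes for YABBY and leaf development, hormones, defence, metabolism, harvest time and handling that were set beside them. Only 52 of the 244 listed genes could be matched to a probe set by name, 44 of them bright enough to be tested, so the lists cover little of each pathway. Between the triple and double mutant 1 of the 44 passed (limma), and it was higher, where 0.677% of all probe sets passed. This was GSL-OH, the glucosinolate side-chain hydroxylation gene, at 10.24 and 10.45 in the triple mutant against 2.102, the lowest value of the table, on every double mutant and wild-type array. GSL-OH is no member because no wild-type array exceeds 4. Against wild type 9 of the 44 passed, 7 higher and 2 lower, where 3.87% of all probe sets passed. The higher ones include GH3.5 (WES1), GH3.17, GH9B13, APS4 and GTR2, which the rule leaves out by name. The lower ones include YAB3, which is mutated in the triple mutant. The lists were chosen with earlier results of these data known, so nothing is read from this share. In each list with at least 4 tested genes the count between the mutants was 0 of 5 auxin genes, 0 of 4 gibberellin genes, 1 of 6 glucosinolate genes, 0 of 4 cell wall loosening genes, 0 of 4 lamina growth genes and 0 of 4 handling and stress genes. Their median triple minus double differences were 0.83, 0.46, 0.96, 1.02, -0.23 and 1.37 log2 units, beside -0.03 over all 13888 probe sets. Each median rests on only 4 to 6 genes. The handling and stress differences ran from -0.54 (COR47) to 2.26 (COR15A). The auxin, gibberellin, glucosinolate and cell wall lists also hold genes that the rule leaves out by name.

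Markers of trichomes and of the stomatal lineage were also measured. The 3 trichome genes tested had triple minus double differences of -2.09 (GIS, a zinc finger regulator of trichome formation), -1.19 (SIM, a cell cycle inhibitor of trichome cells) and -0.98 (TRY, an inhibitor of trichome fate), and none passed between the mutants. GIS read 3.51 and 3.40 in the triple mutant, against 5.38 and 5.70 in the double mutant and 4.38, 4.29, 3.40 and 3.40 in wild type. SIM read 6.26 and 5.84 in the triple mutant, against 7.39 and 7.09 in the double mutant and 6.86 to 7.80 in wild type. The triple mutant was thus below the double mutant for both, and for GIS at the level of wild-type arrays 3 and 4. Of the 3 stomatal lineage genes tested, MUTE, a regulator of guard cell precursors, read 3.33 and 2.82 in the triple mutant, against 4.64 and 4.595 in the double mutant and 4.04 to 4.55 in wild type. It was lower than in wild type (limma, adjusted p = 0.0306) and did not pass against the double mutant (adjusted p = 0.0722). SPCH and FAMA, which act before and after MUTE, had differences of -0.31 and -0.07 between the mutants, and neither passed. The part of trichome and stomatal cells in the members' pattern was not tested.

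The cold and stress genes varied within groups. COR15A, a chloroplast protein gene induced by cold, read 8.13 and 5.76 in the triple mutant, 5.79 and 3.58 in the double mutant and 2.18 to 6.58 in wild type. GI, the listed clock gene that could be tested, read 4.70 and 5.45 in the triple mutant, 5.09 and 5.02 in the double mutant and 7.40, 6.64, 3.45 and 6.77 in wild type. Groups overlapped for both genes, and their part in the members' pattern was not tested.

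How many members remain depends on which arrays are used. With only wild-type arrays 3 and 4 the rule found 168 probe sets, 112 of them among the 145, and with only arrays 1 and 2 it found 132, of which 96 were among the 145. Without double mutant array 1 it found 159 (100 shared) and without array 2 it found 180 (96 shared). A core of 28 members met the rule without any 1 of the 8 arrays and with either wild-type pair. The 14 named genes in it were AT3G44630, AT3G47800, AT1G75230, AT1G65280, AT5G27990, AT1G59960, AT2G21860, NET4B, AT5G45510, AT1G64190, AT1G74450, AT3G28950, AT5G37290 and AT2G33220. AT1G74450 read 8.14 and 7.85 in the triple mutant, 6.36 and 6.77 in the double mutant and 5.82 to 6.94 in wild type, and AT5G37290 read 6.34 and 6.51 in the triple mutant, against 5.31 and 5.06 in the double mutant and 4.89 to 5.39 in wild type. UGT72E1, DME, PPDK, AT1G62480 and AT3G62820 are not in that core, while AT3G44630, AT1G65280, NET4B, AT3G28950 and AT2G33220, which are, have repeated values outside the triple mutant.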

How the data were processed

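The deposited table holds 1 log2 value per probe set and array. The submitters' processing notes name GCRMA and R 2.7.2, and no source used here gives the settings. That the scale is log2 follows from the range of the values, 2.102 to 15.76. No reads or counts exist for arrays, so the number of arrays limits the precision. After 64 control probe sets were set aside, members were found by the rule given above. Gene names came from the platform annotation, updated through the RefSeq table of TAIR10.1. Its start positions and lengths also gave the order and the length of the genes. A limma 3.58.1 model of 3 groups (R 4.3.3; lmFit, then eBayes; two-sided) used all 8 arrays and the 13888 probe sets above a log2 value of 4 on at least 2 of them, with Benjamini-Hochberg adjustment. Medians, ranges and gene order were computed in Python 3.11.15 with pandas 2.3.3 and figures drawn with matplotlib 3.10.9. The fit and the rule were tested on simulated data. The members and gene lists were chosen with earlier results of these data known.

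The genes named are the 20 single-gene members with the largest difference between the mutants, members adjacent in gene order, the 3 nearest the threshold on either side, and listed genes that passed between the mutants. A further 28 members were chosen after their values were seen. The part of the rule on family words named none, since the names in the gene table gave only 1 member such a word and 3 were needed. A listed gene was represented by its brightest probe set. Alternatives were other filters on dim probe sets, median centring, quantile normalization, a robust fit with an intensity trend, a replicate block, other choices of wild-type arrays and leaving out each array. Same-numbered arrays of the 2 mutants did not deviate together (r = 0.0039 across probe sets).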

Additional observations from a re-analysis of the deposited data

Results flagged for a closer look

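Among the 54 named members, 5 had a wild-type array whose distance from the nearest other wild-type array was most of the group's range; chance gives about 1 such group in 20. For NET4B this was wild-type array 2 at 5.86, above the others. For AT1G65280 (wild-type array 4 at 6.08), AT3G28950 (array 4 at 4.47), AT1G62150 (array 1 at 3.87) and AT3G43960 (array 3 at 4.43) the other wild-type arrays were nearly equal, and the distances were only 0.036, 0.0094, 0.190 and 0.179 log2 units. These 4 genes and NET4B hold the same deposited value on 2 to 4 of the 6 arrays outside the triple mutant.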

How the results depend on the processing

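The number of probe sets that meet the rule stayed within 1.5 times of 145 in every alternative except that without the demand for a wild-type array above 4, where it was 272; leaving out 1 array gave 144 to 214. The members' median triple minus double difference lay between 1.32 and 1.41 in all alternatives, and their median wild-type pair difference between -0.19 and -0.06. The number of probe sets called between the triple and double mutant, 94, was 144 without a filter, 55 with a filter at 6, 143 with wild-type arrays 3 and 4 only, 149 with arrays 1 and 2 only, 233 with the pairs as separate groups, and 11 to 94 without 1 array (11 without either triple mutant array, 57 without double mutant array 1). Triple mutant against wild type, 538, gave 1265 and 3366 with those wild-type pairs, 2484 with the pairs as separate groups, and 46 to 578 without 1 array (46 and 47 without a triple mutant array, 303 and 299 without a double mutant array, 317 and 353 without wild-type arrays 1 and 4). Double mutant against wild type, 23, gave 12 without a filter, 49 and 1790 with those wild-type pairs, 332 with the pairs as separate groups, and 0 to 26 without 1 array (0 without double mutant array 1 by limma, where 433 had an unadjusted p under 0.05, 9 without double mutant array 2, 15 and 11 without wild-type arrays 1 and 4). With a replicate block the 3 counts were 74, 2500 and 950. In that fit 8 members were called higher in the triple than in the double mutant, and 99 higher than in wild type. Of all 13888 probe sets, 56 and 1134 were called higher in these comparisons. The labels do not say that equal numbers mark shared material. The cause of these moves was not tested. Some of the fits used fewer arrays or another set of probe sets, while those with separate pairs or a replicate block used all arrays and the same 13888 probe sets. The rule fixes the sign of the members' differences without any 1 array. Over the 54 named members, 5 of 324 values reached a change as large as the spread between the arrays. With 2 arrays per mutant, leaving out 1 cannot move a difference beyond that spread, so this count is no measure of stability. The difference of DME, for example, fell from 1.28 to 0.32 without double mutant array 1 and is not among the 5. The few arrays limit these values, and so may low signal in the 25 members with repeated values.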
